A study of Mus musculus with 6 samples.

Results

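The 6 genes described here encode the mouse receptors for the constant part of IgG and their shared signalling chain: Fcgr1, Fcgr2b, Fcgr3, Fcgr4, Fcer1g and Fcgrt. They were taken by gene symbol from a table of 46603 genes, and all 6 of 6 were expressed well enough to be tested, among 15226 genes tested in all. The samples were cultures of neurosphere-derived EGCs (enteric glial cells, which ensheath the neurons of the intestine) grown from total gut of E14.5 C57BL/6J mouse embryos. Control cultures (n = 3) received no stimulus. LPS cultures (n = 3) received lipopolysaccharide, an outer membrane component of Gram-negative bacteria, for 12 h at 100 ng/ml. Each culture was expanded first as floating spheres and then as an adherent layer in serum, and no sorting of the cells is described for it. Poly(A) RNA was sequenced, and each library held between 18775316 and 23664312 counts. The question addressed was how expression of these receptors differed after LPS in such cultures.

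Fc gamma receptors bind antibody-coated particles. FcγRI (Fcgr1), FcγRIII (Fcgr3) and FcγRIV (Fcgr4) are activating: each pairs with the FcR γ-chain, encoded by Fcer1g, whose immunoreceptor tyrosine-based activation motif (ITAM) is phosphorylated by Src-family kinases and then recruits Syk. FcγRIIB (Fcgr2b) is the inhibitory receptor; its own tail carries an inhibitory motif (ITIM) that recruits the phosphatase SHIP1. FcRn (Fcgrt) has a different task, since it resembles an MHC class I molecule, pairs with β2-microglobulin and rescues IgG from degradation inside cells. The activating receptors and the γ-chain are best known from macrophages, monocytes, neutrophils and natural killer cells, whereas FcRn is also made by endothelial and epithelial cells.

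The 2 signalling motifs that set the activating chain apart from the inhibitory receptor could be read from the coding sequence. They are shown because the report contrasts these chains, with the tyrosine codons in capitals (coding strand, 5′ to 3′, GRCm38). A search of the 6 translated coding sequences for an ITAM, a tyrosine followed by any 2 residues and a leucine or isoleucine, then the same again after 6 to 8 residues, found it in Fcer1g alone, at residues 65 to 79 of 86. The ITIM of Fcgr2b lay at residues 317 to 322 of 340. The ITIM pattern is short and also matched in Fcgr1, Fcgr4, Fcer1g and Fcgrt, so a match by itself marks no functional motif.
Fcer1g ITAM (chr1:171229883-171230078, minus strand, across an intron): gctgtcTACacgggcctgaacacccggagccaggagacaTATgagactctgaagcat
Fcgr2b ITIM (chr1:170961065-170961094, minus strand): aatacgatcaccTACtcacttctcaagcat

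Fcgr2b and Fcgr3 are near copies of one another in the part that lies outside the cell, and this bears on how their reads could be counted. Their coding sequences were identical at 87.5% of 785 aligned bases, against 67.9% to 69.9% for the other pairs among the Fc gamma receptor genes. Of all 50-base words in the transcripts of Fcgr3, 9.58% also occurred in Fcgr2b, and these made up 2.92% of the words of Fcgr2b. Fcgr2b shared 6.95% of its words in all, also with Gm38204 (1.88%) and Cplx2 (1.72%). Fcgr1, Fcgr4, Fcer1g and Fcgrt shared 0 such words with any other gene. The longest identical coding run, 129 bases, is shown because reads that fall inside it could not be assigned to one of the genes.
Fcgr2b and Fcgr3, shared run (chr1:170966674-170968081 in Fcgr2b and chr1:171054167-171057792 in Fcgr3, minus strand, across an intron in each): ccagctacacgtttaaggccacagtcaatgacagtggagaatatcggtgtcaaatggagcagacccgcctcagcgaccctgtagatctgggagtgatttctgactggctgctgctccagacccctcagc
How the authors treated reads with several alignments is not given in the sources used here, so the counts of Fcgr2b and Fcgr3 are uncertain. Exons of Fcgr2b also overlapped the antisense gene Gm38204 by 155 bases, but Gm38204 had a count of 0 in all 6 libraries.

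The libraries numbered 3 stood apart from the others of their group, and they carried the most RNA of macrophage genes. Between control 1 and control 2 the chi-square per degree of freedom over genes was 7.11, and between either of them and control 3 it was 67.1 to 91.7. In LPS the same measure was 7.38 between libraries 1 and 2 and 123.3 to 143.8 against library 3. All glial markers examined (8 of 8, among them Sox10 and S100b) were detected in every library, as were all 6 mesenchymal and all 6 smooth muscle markers. Macrophage markers were abundant too: 13 of 14 exceeded 3 counts in every library, and all 14 were highest in library 3 of each group. Their summed level was 4554, 5989 and 14210 CPM (library-scaled counts, with TMM factors, per 1000000) in control 1, 2 and 3, and 4269, 5524 and 21220 CPM in LPS 1, 2 and 3. The summed smooth muscle markers ran from 2266 to 2492 CPM in control and from 634.1 to 900.3 CPM in LPS. Markers of neutrophils, natural killer cells, B cells, mast cells and T cells were mostly at or under 3 counts in every library (5 of 6, 4 of 5, 3 of 5, 4 of 5 and 4 of 5 genes), with Cd3e, Cd3d, Cd3g, Ncr1, Prf1, Mcpt4 and Tpsb2 at 0 throughout; among the rest, S100a8 and the B-cell gene Pax5 reached the highest levels in LPS, at 4.03 to 14.9 and 1.68 to 2.62 CPM. Of the dendritic cell markers 3 of 5 were at or under 3 counts, and 4 of 6 endothelial markers exceeded 3 counts in every library. In such bulk samples, fewer cells of a type and less RNA per cell cannot be told apart. The part of macrophages in the results below was not tested beyond the ratios given, and the test of each member and each list is given with and without the libraries numbered 3.

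On group alone (edgeR's quasi-likelihood test, Benjamini-Hochberg adjustment over all genes tested), no member passed the test: 0 were higher and 0 lower at an adjusted p of 0.05, against 9.09% of all genes higher and 6.71% lower. None of the 6 had an unadjusted p under 0.05, and the exact test of edgeR, limma-voom and DESeq2 called 0 as well, DESeq2 giving no adjusted p for Fcgr1 and Fcgr4. The libraries numbered 3 deviated together in control and LPS, whereas the numbers 1 and 2 were not told apart. With the replicate number as a block, a choice made from these data, 3 of the 6 were called. Fcgr1 and Fcer1g rose, against 15.4% of all genes, and Fcgr3 fell, against 14.9%. Without the libraries numbered 3 the same 3 genes were called in the same directions, against 22.6% of all genes higher and 20.4% lower. The median log2 fold change of the 6 genes was 0.53 on group alone, beside -0.02 for all genes tested. That median depended on single libraries: it was -0.15 without LPS 3, 1.40 without control 3 and 0.14 without both.

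**Figure D1:**
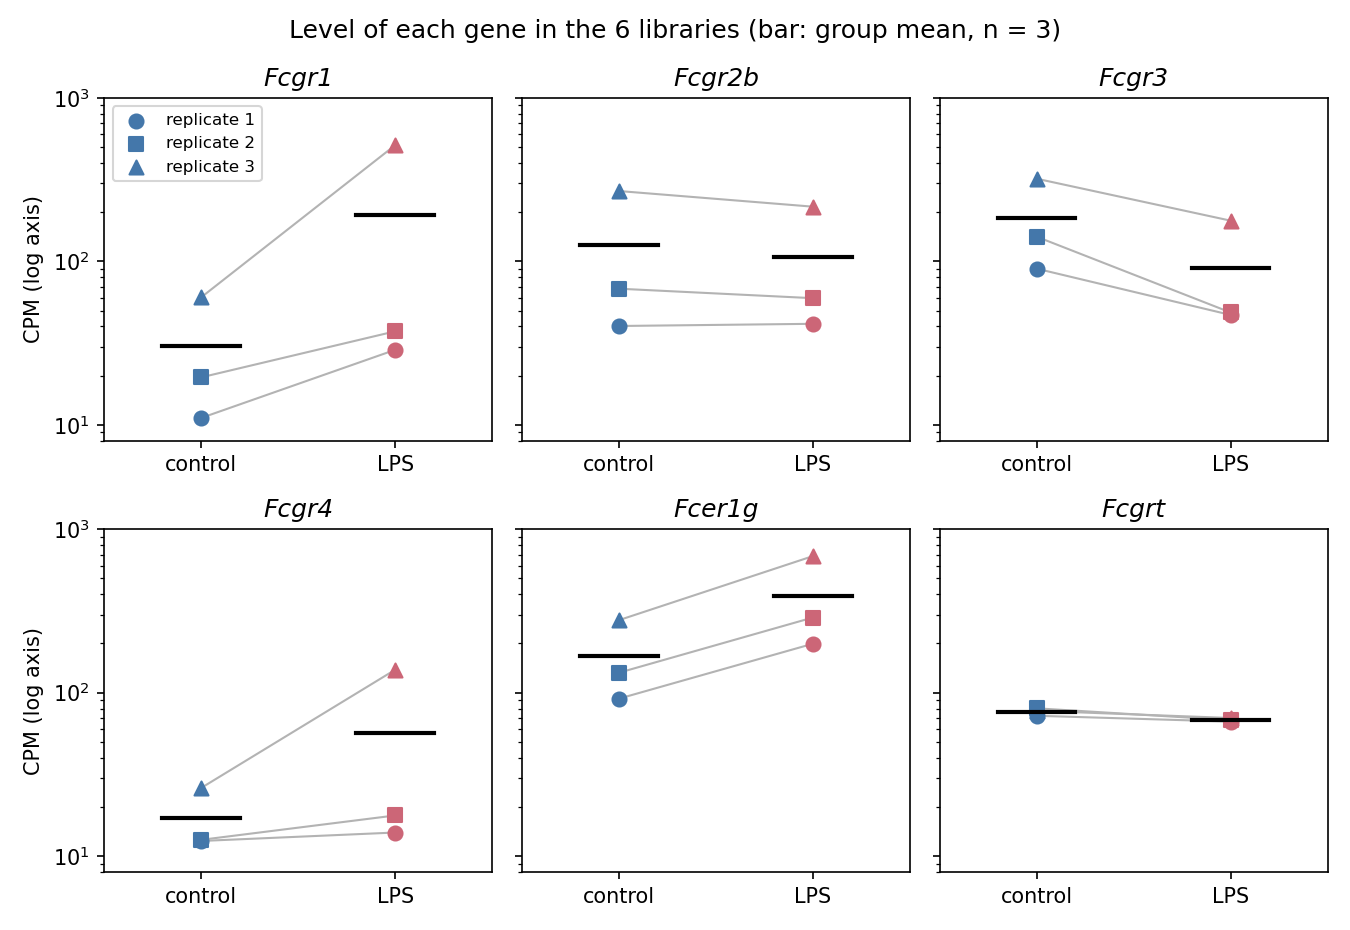
Each panel plots the CPM of one gene on a log axis in the control (blue) and LPS (red) libraries, with lines joining libraries of the same replicate number and bars at the group means (n = 3 each). Triangles (replicate 3) lie above the rest in both groups for every gene but Fcgrt, whose 6 values lie between 66.5 and 80.2 CPM.

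Fcer1g, the γ-chain on which the activating receptors depend, was the most evenly higher gene of the set. Its level was 91.9, 132.4 and 277.7 CPM in control 1, 2 and 3, and 199.2, 288.2 and 684.6 CPM in LPS 1, 2 and 3. LPS was higher at each replicate number by a closely similar factor, although control 3 exceeded LPS 1 so that the groups overlapped. The log2 differences by number were 1.12, 1.12 and 1.30. On group alone the log2 fold change was 1.22 (SE 0.60, adjusted p = 0.223), and with the replicate block it was 1.18 (SE 0.067, adjusted p = 0.00137). Without the libraries numbered 3 it was 1.14 (adjusted p = 0.00646). Leaving out only LPS 3 gave 0.54 (adjusted p = 0.474), and only control 3 gave 1.82 (adjusted p = 0.113).

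Fcgr1, the high-affinity receptor for monomeric IgG, had the widest range. It measured 11.0, 19.5 and 60.3 CPM in control, and 28.8, 37.3 and 514.1 CPM in LPS. The LPS library numbered 3 exceeded the mean of the other LPS libraries 15.6-fold, and control 3 exceeded the other controls 3.95-fold, so that the groups overlapped. LPS was nonetheless higher at each number, by 1.38, 0.94 and 3.09 on the log2 scale. The fold change on group alone, 2.67 (SE 1.33, adjusted p = 0.227), rested on LPS 3: without that library it was 0.12 (adjusted p = 0.922). Leaving out only control 3 gave 3.68 (adjusted p = 0.190). With the replicate block the log2 fold change was 1.84 (SE 0.47, adjusted p = 0.0468), and without both libraries numbered 3 it was 1.14 (SE 0.26, adjusted p = 0.0128).

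Fcgr4, a receptor of intermediate affinity for IgG2a and IgG2b, resembled Fcgr1 in its dependence on LPS 3. Control libraries held 12.4, 12.6 and 26.1 CPM, and LPS libraries held 13.9, 17.7 and 138.1 CPM. LPS 1 and LPS 2 lay below control 3, and LPS 3 was 8.72-fold above the mean of the other LPS libraries. The log2 differences by number were 0.17, 0.50 and 2.40. No fit called it: the log2 fold change was 1.73 (SE 0.96, adjusted p = 0.273) on group alone, 1.07 (adjusted p = 0.167) with the block, 0.36 (adjusted p = 0.0735) without the libraries numbered 3, and -0.11 (adjusted p = 0.866) without LPS 3.

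Fcgr3, the low-affinity activating receptor, went the other way. Its level was 90.3, 141.7 and 320.8 CPM in control and 47.0, 48.7 and 177.6 CPM in LPS. The LPS value was lower at each number, by -0.94, -1.54 and -0.85 on the log2 scale, although LPS 3 exceeded the controls numbered 1 and 2. On group alone the log2 fold change was -1.02 (SE 0.71, adjusted p = 0.375). With the replicate block it was -1.11 (SE 0.15, adjusted p = 0.0116), and without the libraries numbered 3 it was -1.25 (adjusted p = 0.00301). Leaving out only LPS 3 gave -1.95 (adjusted p = 0.0723), and only control 3 gave -0.33 (adjusted p = 0.767).

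Fcgr2b, the inhibitory receptor, was not called on group alone or in any of the 18 alternative fits. It measured 40.3, 68.1 and 269.6 CPM in control and 41.5, 59.6 and 216.3 CPM in LPS, so that the numbers 1, 2 and 3 kept almost the same level under both conditions. Control 3 was 4.98-fold, and LPS 3 4.28-fold, above the mean of the other libraries of its group, the widest spread of any member in the controls. The log2 fold change was -0.25 (SE 0.92, adjusted p = 0.881) on group alone and -0.16 (SE 0.087, adjusted p = 0.226) with the block. Its sign turned without control 3 (0.98, adjusted p = 0.446), LPS 1 (0.13, adjusted p = 0.947) or LPS 2 (0.03, adjusted p = 0.990) alone, and leaving out LPS 3 alone gave -1.32 (adjusted p = 0.331); without both it was -0.08 (adjusted p = 0.836).

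Fcgrt, the neonatal receptor that recycles IgG and albumin, was the only member whose groups did not overlap. Control libraries held 72.2, 80.2 and 77.4 CPM and LPS libraries 66.5, 67.9 and 70.0 CPM, against 19.4% of all genes with every LPS value below every control value and 19.3% with every LPS value above. The difference was small, -0.17 on the log2 scale (SE 0.070, adjusted p = 0.159), and -0.16 (adjusted p = 0.113) without the libraries numbered 3. It was called lower when libraries were scaled to their upper quartile (-0.27, adjusted p = 0.0404) or to library size alone (-0.33, adjusted p = 0.0245), settings that called 10.4% and 13.5% of all genes lower. Those settings also moved the median of all genes from -0.02 to -0.12 and -0.18. Control 3 was 1.016-fold, and LPS 3 1.041-fold, the mean of the others in its group, unlike the other members.

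**Figure D2:**
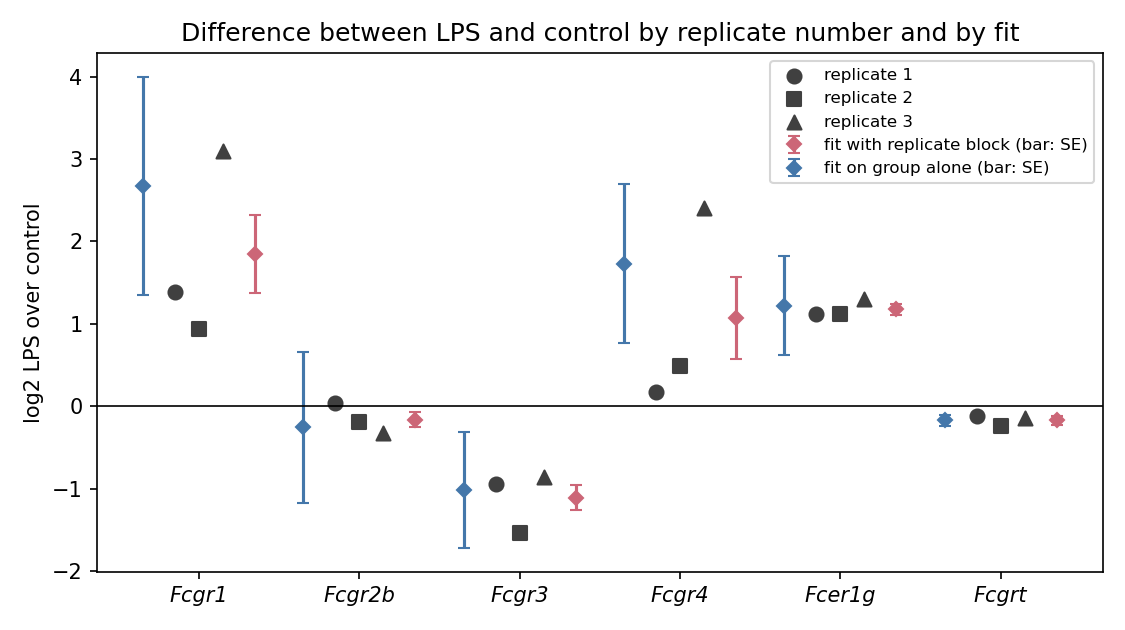
For each gene the plot gives the log2 ratio of LPS to control at each replicate number (grey), the fit on group alone (blue diamonds) and the fit with a replicate block (red diamonds), with bars for the SE. Fcer1g shows similar ratios at all 3 numbers (1.12 to 1.30), whereas the ratios of Fcgr1 (0.94 to 3.09) and Fcgr4 (0.17 to 2.40) are led by number 3.

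Levels of different genes were compared as CPM per kilobase of exon. In control Fcer1g was at 191.5 ± 111.8, Fcgr3 at 106.1 ± 69.7, Fcgrt at 36.5 ± 1.94, Fcgr2b at 21.8 ± 21.6, Fcgr4 at 13.6 ± 6.27 and Fcgr1 at 11.7 ± 10.2 CPM per kilobase (SD, n = 3). Among neighbours in this order, only Fcgr3 and Fcgrt did not overlap between libraries. In LPS the means were 447.0 ± 295.7 for Fcer1g, 74.7 ± 107.3 for Fcgr1, 52.5 ± 43.1 for Fcgr3, 45.1 ± 56.2 for Fcgr4, 32.4 ± 0.83 for Fcgrt and 18.3 ± 16.6 for Fcgr2b. There Fcer1g did not overlap its neighbour, and the rest overlapped each other. Within single libraries the γ-chain gene came first in all 6, and Fcgr3 followed it in all 3 controls. Fcgr1 was last or next to last in each control. It came next in rank after Fcgr3 in LPS 1 (11.1 against 27.1) and LPS 2 (14.4 against 28.1), though well below it. In LPS 3 it came next to Fcer1g at the top, and Fcgrt came last. Dividing by the longest transcript in place of all exons raised Fcgr2b to 35.5 ± 35.3 in control and 29.9 ± 27.1 in LPS. The order of the group means was the same, but Fcgr2b then lay between Fcgr3 and Fcgr1 in LPS 1 (11.7 against 11.1 for Fcgr1) and LPS 2 (16.8 against 14.4), and above Fcgr4 in control 1. In LPS 3 Fcgr3 (131.8) then lay above Fcgr4 (109.9), which by all exons had been the higher.

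Ratios between members were formed within each library. Fcer1g over Fcgr3 was 1.02, 0.934 and 0.866 in control and 4.23, 5.92 and 3.86 in LPS, so that one γ-chain read per Fcgr3 read became several in each LPS library. Fcgr1 over Fcgr3 was 0.122, 0.138 and 0.188 in control and 0.611, 0.767 and 2.89 in LPS, and Fcgr4 over Fcgr3 was 0.137, 0.0887 and 0.0814 in control and 0.296, 0.364 and 0.778 in LPS. In neither ratio did the groups overlap. The inhibitory receptor over its near copy, Fcgr2b over Fcgr3, was 0.446, 0.481 and 0.841 in control and 0.882, 1.22 and 1.22 in LPS, again without overlap, though control 3 and LPS 1 lay close together. Fcgr2b over the sum of the 3 activating receptors was 0.354, 0.392 and 0.662 in control and 0.463, 0.574 and 0.261 in LPS, and these overlapped. Of all genes set over Fcgr3, 9.85% lay above every control and 0.558% below. A gene of equal CPM in all libraries overlaps on this scale, since Fcgr3 varied widely within each group. These ratios were given no p, since exact tests over 3 against 3 libraries cannot go below 0.10.

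**Figure D3:**
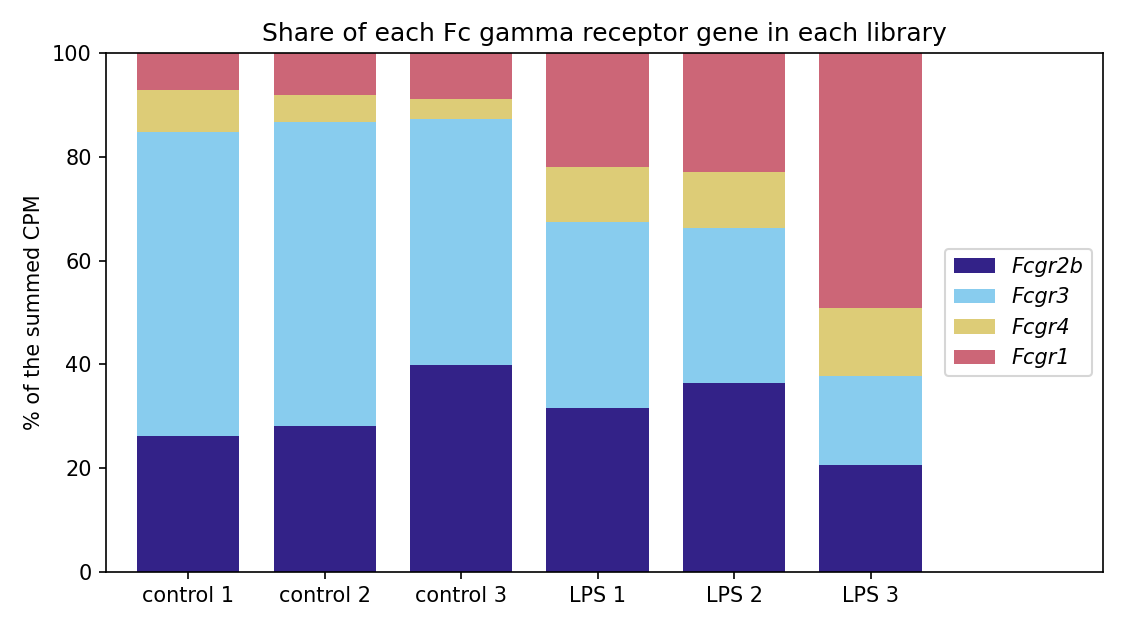
The bars give, for each library, the percentage of the summed CPM of the 4 Fc gamma receptor genes that each gene supplied. Fcgr3 supplied 47.4% to 58.7% in control and 17.0% to 35.8% in LPS, and Fcgr1 supplied 7.16% to 8.91% in control and 21.9% to 49.1% in LPS.

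Within the pool of the 4 Fc gamma receptor genes, the shares of Fcgr1 and Fcgr4 were higher, and that of Fcgr3 lower, in every LPS library than in every control. On its own CPM each of these genes overlapped between the groups. All genes tested give no yardstick here, because shares of this pool exist only for its members. These shares are of CPM, which were not divided by length and so favour the long exons of Fcgr2b; per kilobase, Fcgr3 was the highest of the 4 in every library but LPS 3, where Fcgr1 was. The share of Fcgr4 was 8.04%, 5.20% and 3.86% in control and 10.6%, 10.9% and 13.2% in LPS. The share of Fcgr2b was 26.2%, 28.2% and 39.8% in control and 31.6%, 36.5% and 20.7% in LPS, with overlap. Shares of one pool are bound to each other.

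The level of each gene was also set against the geometric mean of the 14 macrophage markers in the same library. On this scale the LPS libraries were higher than every control for Fcgr1 (mean log2 difference 2.11), Fcer1g (1.48) and Fcgr4 (1.32), and lower than every control for Fcgr3 (-0.81). Fcgr2b (0.15) and Fcgrt (0.13) overlapped. Of all genes tested, 3.59% lay above every control and 1.31% below on this scale. The geometric mean was itself 93.7, 143.2 and 373.4 CPM in control 1, 2 and 3, and 66.8, 81.7 and 490.5 CPM in LPS. A gene of equal CPM in all libraries therefore overlaps on this scale. The shares are thus a low yardstick for genes that follow the markers. Within the controls the SD of the log2 ratio was 0.11 for Fcgr3, 0.21 for Fcer1g and 0.23 for Fcgr1, and 0.99 for Fcgrt (n = 3). Within LPS it was wider for these 4 genes, at 0.50, 0.71, 0.72 and 1.55. For Fcgr2b and Fcgr4 it was narrower in LPS, at 0.371 and 0.235 against 0.397 and 0.465 in control. Against the sum of the markers in place of their geometric mean, the differences were 1.68, 1.06, 0.90 and -1.23 for Fcgr1, Fcer1g, Fcgr4 and Fcgr3, with the groups again apart, while Fcgr2b and Fcgrt turned to -0.28 and -0.29 and still overlapped. On that scale 3.65% of all genes lay above every control and 2.99% below, with the same limit. The markers themselves did not move as one, since with the block Adgre1 was higher (log2 fold change 2.67, adjusted p = 0.000823) while Mrc1 (-3.92, adjusted p = 0.0124) and Cd68 (-0.86, adjusted p = 0.00313) were lower.

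**Figure D4:**
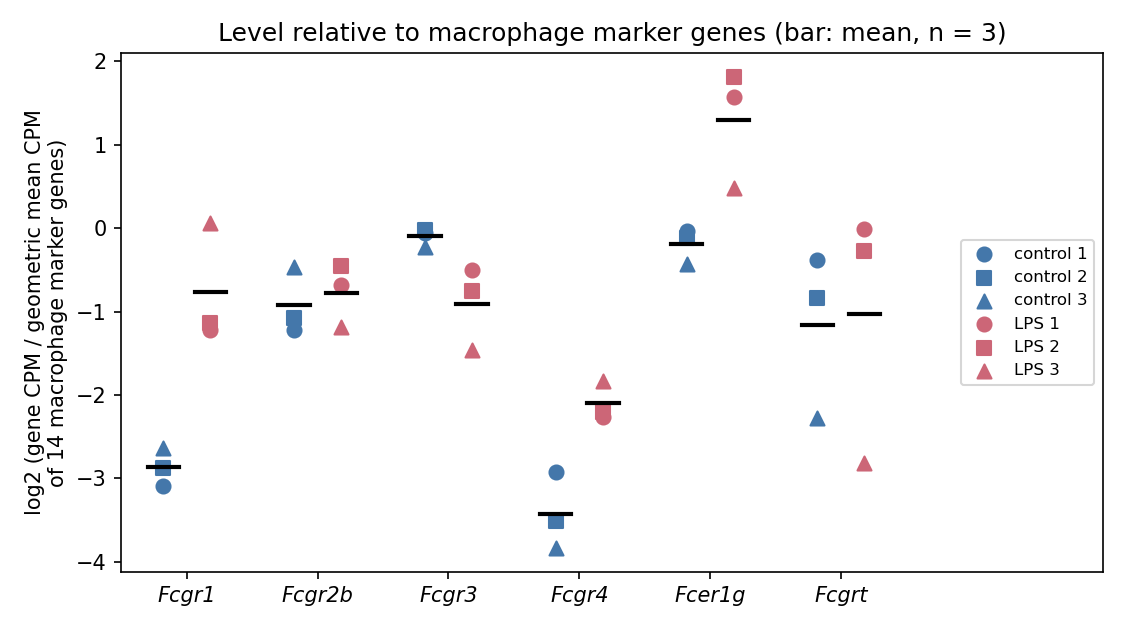
The plot gives the log2 ratio of each gene to the geometric mean CPM of 14 macrophage marker genes in the same library, with controls in blue, LPS in red and bars at the means (n = 3 each). LPS and control are apart for Fcgr1, Fcgr3, Fcgr4 and Fcer1g and overlap for Fcgr2b and Fcgrt. Of all genes tested, 3.59% are apart upwards and 1.31% downwards. These shares are a low yardstick, since a gene of equal CPM in all libraries overlaps on this scale.

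The genes with the most similar profile were found by the root mean square (RMS) difference between centred log2 CPM over the 6 libraries, among 11474 genes with a mean of at least 5 CPM. Nearest to Fcgr1 were Ms4a6b, Gm5431, Siglec1, Clec4a3 and Aif1 (RMS 0.311 to 0.480). Nearest to Fcgr2b were Ptpn7, Ly86, Card9, Dennd1c and Csf1r (0.233 to 0.282), and nearest to Fcgr4 were Trpm2, Arhgap4, Tmem171, Themis2 and Msr1 (0.256 to 0.277). Closer still were the neighbours of Fcgr3, which were Apoe, Lgmn, Alox5ap, Lat2 and Lmo2 (0.0997 to 0.139), and those of Fcer1g, which were A630001G21Rik, Snx20, Lpcat2, Clec4d and Unc93b1 (0.113 to 0.148). Csf1r is the receptor for the macrophage growth factor CSF1, and Siglec1, Aif1 and Msr1 are likewise known from macrophages. The neighbours of Fcgrt were Jarid2, Pbrm1, Prkaca, Vash2 and Trappc1 (0.0242 to 0.0318). Of all the neighbours named, only Aif1 and Csf1r are in the list of macrophage markers. The median RMS difference to all candidates was 1.76 for Fcgr1, 1.01 for Fcgr3 and 0.231 for Fcgrt. Between members, Fcer1g and Fcgr4 were closest (0.573), followed by Fcgr2b and Fcgr3 (0.579), and Fcgr1 and Fcgrt lay farthest apart (1.78).

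Counts in the lists of related genes are read against the shares of all genes: 9.09% higher and 6.71% lower on group alone, 15.4% and 14.9% with the block, and 22.6% and 20.4% without the libraries numbered 3. Of 22 genes of Fc receptor signalling, 0 were called higher and 2 lower on group alone, and with the block 8 were higher and 4 lower. The median log2 fold change of this list was 0.25, -0.33 without LPS 3, 0.86 without control 3 and 0.04 without both. The lower genes on group alone were Plcg1, a phospholipase (-0.54, adjusted p = 0.0151), and Pik3r1, a regulatory subunit of PI3-kinase (-0.34, adjusted p = 0.0278); the Pik3r1 call was lost with the edgeR exact test (adjusted p = 0.0938) and without a filter (0.0526). Syk, the kinase that docks on the phosphorylated ITAM, was at 55.5, 68.5 and 131.3 CPM in control and 130.1, 171.7 and 402.4 CPM in LPS; its log2 fold change was 1.46 (adjusted p = 0.121) on group alone and 1.39 (adjusted p = 0.0021) with the block. The adaptor gene Lcp2, which encodes SLP-76, also rose with the block (2.11, adjusted p = 0.00034), while the adaptor gene Lat2 fell (-1.06, adjusted p = 0.00772). Without the libraries numbered 3, 5 of 21 tested were higher and 5 lower.

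Of 9 genes of inhibitory phosphatases and adaptors, Cblb, a ubiquitin ligase that restrains tyrosine kinase signalling, was the one called on group alone (-0.75, adjusted p = 0.0333) and 0 were higher; without the libraries numbered 3, 2 were higher and 2 lower. The median was 0.19, but -0.29 without LPS 3, 0.45 without control 3 and 0.06 without both. Inpp5d, which encodes the phosphatase SHIP1 that binds the Fcgr2b ITIM, was at 40.1, 65.1 and 169.6 CPM in control and 22.6, 25.9 and 164.5 CPM in LPS. Its log2 fold change was called neither on group alone (-0.37, adjusted p = 0.828) nor with the block (-0.72, adjusted p = 0.104). It was called without the libraries numbered 3 (-1.10, adjusted p = 0.00841), and its sign turned without control 3, LPS 1 or LPS 2 alone (0.45, 0.06 and 0.03). With the block 2 genes of this list were higher (Ptpn6 and Ptpn11, which encode phosphatases) and 1 lower. Of 16 genes of the phagocytic actin machinery, 1 was higher, Pak1, a kinase activated by Rac (0.48, adjusted p = 0.0385). That call was lost under upper-quartile factors (adjusted p = 0.104), library size alone (0.134) and no filter (0.0624). The list held 2 lower genes: Myo10, an unconventional myosin (-0.71, adjusted p = 0.0036), and Gsn, which severs actin filaments (-1.07, adjusted p = 0.0101). With the block 4 were higher, Rac2 and Coro1a among them, and 3 lower, and without the libraries numbered 3, 5 were higher and 4 lower. The median of this list was near that of all genes and had no steady sign: 0.14 on group alone, -0.14 without LPS 3, 0.29 without control 3, 0.03 without both and -0.02 under library size alone.

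Other receptors that signal through the γ-chain or through the related adaptor DAP12 were read from 9 tested of 13 listed, of which 4 were called higher and 0 lower on group alone; without the libraries numbered 3, 5 of 8 tested were higher and 3 lower. Of the 4, Clec4e, Pilrb1 and Trem1 passed the filter on low counts only through the LPS libraries, in which they were high, so these counts and the median of 1.03 are no support for a direction of the list. With at least 10 counts in every library, 5 genes were tested, Clec4n was the 1 called higher, and the median was -0.43. The median was 0.38 without LPS 3, 1.51 without control 3 and 1.62 without both. Clec4n, which encodes Dectin-2 and uses the γ-chain, was at 13.7 to 16.7 CPM in control and 33.0 to 75.2 CPM in LPS (1.97, adjusted p = 0.0145). Clec4e, which encodes the γ-chain partner Mincle, was at 0.381, 0.354 and 1.61 CPM in control and 554.4, 912.1 and 653.6 CPM in LPS. The DAP12 partner Pilrb1 was at 0.297, 0.133 and 0.537 CPM in control and 6.28, 9.86 and 30.1 CPM in LPS, and Trem1 was at 0.0847, 0.0443 and 0.455 CPM in control, at or under 3 counts in control 1 and control 2, and 2.22, 2.06 and 2.36 CPM in LPS. In these 3 genes every LPS value exceeded every control value, as in 19.3% of all genes tested. Since they entered the test only through LPS, this order is no support for a direction. Other settings on group alone called genes of the list lower: 2 under DESeq2, the edgeR exact test and library size alone, and 1 under limma-voom. With the block 5 were higher and 3 lower. The lower genes were Trem2 (-3.26, adjusted p = 0.00491), Cd300lb (-2.64, adjusted p = 0.0029) and Tyrobp, which encodes DAP12 itself (-0.60, adjusted p = 0.0469). Tyrobp was not called on group alone (-0.43, adjusted p = 0.706), and its sign turned there without control 3 (0.13, adjusted p = 0.917). Tyrobp was at 114.1, 161.2 and 327.5 CPM in control and 66.3, 89.6 and 290.9 CPM in LPS, lower in LPS at each replicate number.

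Among 14 genes of other Fc receptors and IgG handling, 5 were tested, of which 2 were higher and 0 lower on group alone; without the libraries numbered 3, 2 were higher and 2 lower. With so few genes the median of 0.36 moved widely, to -0.03 without control 2, 0.68 without LPS 3, 0.45 without both libraries numbered 3, -0.80 without a filter and 1.37 with at least 10 counts in every library. B2m, the partner chain of FcRn and of MHC class I molecules, was at 596.1 to 712.2 CPM in control and 3340 to 3503 CPM in LPS (2.39, adjusted p = 0.00026), beside the near-constant level of Fcgrt. Trim21, a cytosolic antibody receptor, was at 9.92 to 12.3 CPM in control and 54.1 to 79.1 CPM in LPS (2.55, adjusted p = 0.00122). With the block Fcrls and Fcrl1, genes of the Fc receptor-like family, were lower (-2.25, adjusted p = 0.00829; -2.87, adjusted p = 0.0138), Fcrl1 having passed the filter only through the control libraries. The IgE receptor chain Fcer1a, the low-affinity IgE receptor Fcer2a, the IgM receptor Fcmr and the polymeric immunoglobulin receptor Pigr had 0 counts in every library. Over all 5 lists, 7 of 61 genes were higher and 5 lower on group alone, 21 and 13 with the block, and 19 and 16 of 59 without the libraries numbered 3. Of the genes called on group alone, Myo10, Clec4e, B2m and Trim21 were also called in each fit without a single library. Clec4e, like Pilrb1 and Trem1 among the 7 higher genes, had passed the filter only through LPS, so its calls are no support. Plcg1, Cblb, Clec4n and Trem1 lost the call without control 1, control 2, LPS 1 or LPS 2, Pak1 and Pik3r1 also without control 3, Gsn without control 2 or LPS 2, and Pilrb1 without control 1 or control 2 (adjusted p = 0.0505 to 0.144). On group alone the counts over all 5 lists are close to those that the shares of all genes, 9.09% and 6.71%, would give.

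**Figure D5:**
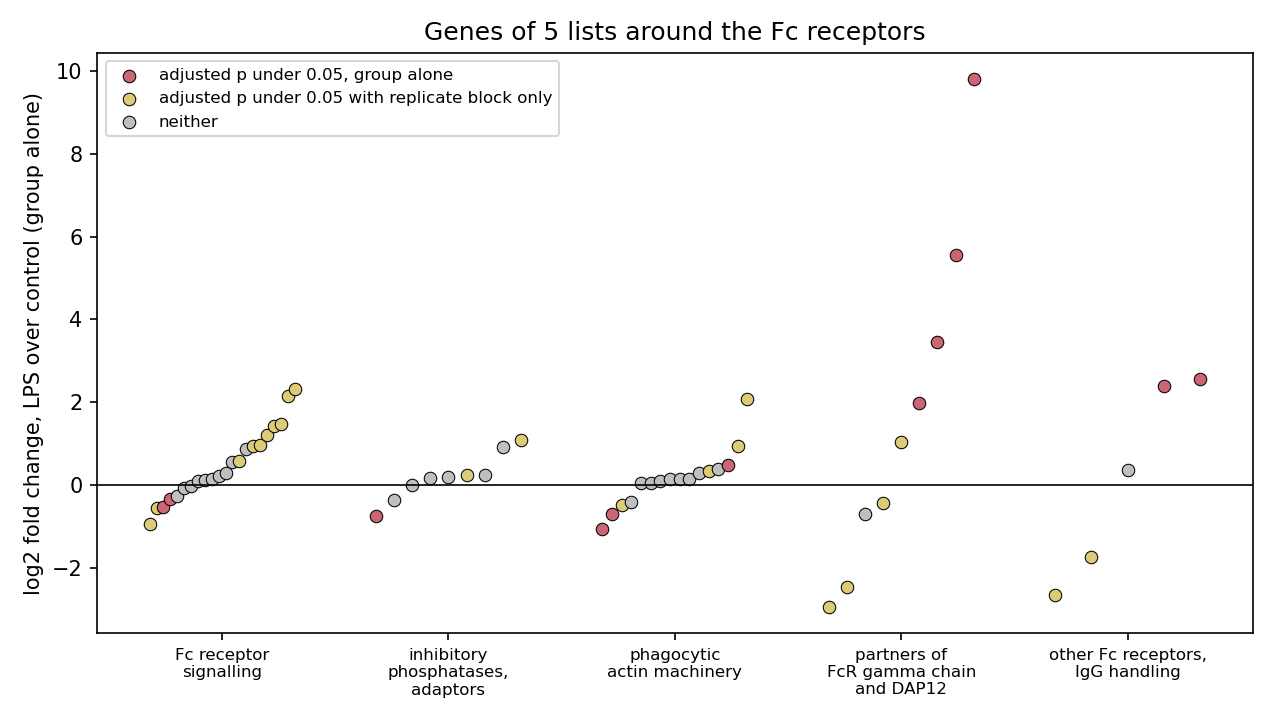
Each point is a tested gene of one of 5 lists, at its log2 fold change between LPS and control on group alone; red marks genes called on group alone (7 higher, 5 lower), yellow those called only with the replicate block. The partners of the γ-chain and DAP12 hold both the highest point, Clec4e at 9.80, a gene that passed the filter only through LPS, and the lowest, Trem2 at -2.94.

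Promoter windows of the members, from 250 bases before to 50 bases after the RefSeq start (GRCm38.p6), were available for 6 of 6 genes and were searched on both strands for 3 motifs. These were the interferon-γ activated sequence TTCNNNGAA, present in 8.3% of 32851 such windows; the core of the interferon-stimulated response element, written GAAA, any 2 bases, GAAA, in 3.44%; and GAGGAA, the core bound by the myeloid factor PU.1, in 28.3%. Fcgr1 and Fcgr4, the receptors with the largest log2 difference at replicate number 3, are shown because each held one interferon-type motif and one PU.1 core, in capitals (the PU.1 core reads TTCCTC, on the other strand).
Fcgr1 promoter (chr3:96293920-96294219, minus strand): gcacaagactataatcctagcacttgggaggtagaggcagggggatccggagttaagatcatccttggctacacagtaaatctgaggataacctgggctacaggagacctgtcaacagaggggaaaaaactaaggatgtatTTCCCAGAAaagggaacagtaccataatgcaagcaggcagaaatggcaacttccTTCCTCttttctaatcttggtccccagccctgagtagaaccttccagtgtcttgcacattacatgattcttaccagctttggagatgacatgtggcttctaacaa
Fcgr4 promoter (chr1:171018676-171018975, plus strand): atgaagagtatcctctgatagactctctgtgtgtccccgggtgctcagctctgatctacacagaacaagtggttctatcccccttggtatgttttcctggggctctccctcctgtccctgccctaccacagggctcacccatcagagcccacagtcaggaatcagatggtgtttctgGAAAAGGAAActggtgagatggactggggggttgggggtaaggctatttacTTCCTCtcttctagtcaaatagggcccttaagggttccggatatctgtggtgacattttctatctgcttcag
In Fcgr1 the TTCNNNGAA match began 109 bases before the start and the PU.1 core 55 bases before it. In Fcgr4 the interferon-stimulated element began 73 bases before the start and the PU.1 core 22 bases before it. The window of Fcgr3 held a PU.1 core 6 bases before the start and neither interferon motif, and those of Fcgr2b, Fcer1g and Fcgrt held none of the 3 motifs as written. A match is a run of letters and was not tested for binding.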

How the data were processed

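Per the labels and the study's methods, the authors trimmed reads with cutadapt 1.15, removed contaminants with Bowtie2 2.3.3.1, aligned to GRCm38 with STAR 2.5.2b, and prepared raw counts per gene, which were deposited per library; SAMtools 1.5 and featureCounts 1.5.3 are named in the submitters' processing notes. The kit kept strand; the strand setting and the treatment of multiple alignments were not given in the sources used here. The deposited counts were tested with edgeR 4.0.16 (R 4.3.3; TMM factors, filterByExpr, quasi-likelihood F-test on group, Benjamini-Hochberg adjustment over 15226 genes, threshold 0.05). CPM used TMM-scaled library sizes, and 3 counts corresponded to 0.124 to 0.167 CPM. limma 3.58.1 and DESeq2 1.42.0 served as alternatives, 18 settings in all. Of the gene identifiers, 98.7% matched the annotation (GENCODE M21). The procedure was also run on simulated counts. These gave all libraries of a group the same expected levels, so they do not cover the shift of the libraries numbered 3.

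Nothing in the labels says what a replicate number stands for, or that cultures were independent, so p-values measure the spread between these samples, which may be technical. The data themselves were used to decide on pairing: libraries with the number 1, 2 or 3 correlated across groups at r = 0.512, 0.334 and 0.613, after each group's mean was subtracted per gene. LPS 2 correlated more strongly with control 1 (0.419), so that the numbers 1 and 2 are not told apart.

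Named genes were all 6 members, the 5 genes of most similar profile per member, and list genes by role, called genes first. The members and lists were chosen with earlier results of these data known. Other columns of per-sample values were 0.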

Additional observations from a re-analysis of the deposited data

How the results depend on the processing

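Of the 6 members, 0 were called on group alone; 2 were called higher and 1 lower with the replicate block, and 1 lower under upper-quartile factors and under library size alone. Leaving out libraries singly or by number called 0 to 2 members higher and 0 to 1 lower. Over all genes, 1384 were higher and 1022 lower; the block gave 2343 and 2273, DESeq2 2079 and 1673. Upper-quartile factors gave 1589 lower and library size alone 2054, with 39.8% and 32.4% of calls higher in place of 57.5%. Leaving libraries out gave 50 to 3498 higher and 1 to 3159 lower, the highest without the libraries numbered 3 and the lowest without those numbered 2; without control 1, control 2, LPS 1 or LPS 2 alone, 379 to 619 were higher and 112 to 224 lower. Counts at least 2-fold were 764 higher and 453 lower, and 50 to 1253 and 1 to 1057 with libraries left out; the lower count was 711 under library size alone and 757 with the block. In the 5 lists, 7 higher became 4 with at least 10 counts in every library, 13 with DESeq2, 12 with the edgeR exact test and 21 with the block, and 5 lower became 13 with the block; with libraries left out, 0 to 19 were higher and 0 to 16 lower. Called values of Fcgr1, Fcgr3 and Fcer1g with the block kept their sign in all 18 alternatives; the signs of Fcgr2b and Fcgr4 did not hold in every fit. The causes were not tested. With 3 libraries a group and a wide spread, differences in Fcgr2b of the size of its SE (0.92) could not be detected on group alone.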
